A study of Homo sapiens with 6 samples.

Results

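The hypoxia-inducible factors HIF1A and EPAS1, 2 of the prolyl hydroxylases that mark them for destruction, and 6 genes known to be induced by low oxygen were followed in SNU-449 cells, a human hepatocellular carcinoma line. The 10 genes, chosen by symbol, were HIF1A, EPAS1, EGLN1, EGLN3, VEGFA, ANGPTL4, ADM, STC2, NDRG1 and BNIP3. All 10 were measured, by 22 of the 54613 probe sets that are not controls, each annotated to 1 of these symbols alone. A probe set is the group of short probes on an Affymetrix array that reads 1 transcript or part of it. Of 6 arrays, 3 held total RNA of cells carrying an empty vector (genotype Ctrl in the labels) and 3 held total RNA of cells labelled USP48 OE, an overexpression of the ubiquitin-specific protease USP48 delivered by lentivirus and followed by puromycin selection for stable expression. The titles call the cells of both groups transfected, with vector or with USP48, while the protocol printed for all 6 samples describes the USP48 lentivirus only. The labels thus differ on how USP48 was delivered, and whether the empty vector cells also received a virus or puromycin is not known here. The labels name no oxygen level and no hypoxia treatment, and do not say whether the stable cells were a clone or a pool. Nor do they say that replicates were grown apart, so every p-value refers to the spread among these arrays, which may be technical only.

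In cells with enough oxygen, prolyl hydroxylases of the EGLN family modify the HIF alpha subunits, the VHL ubiquitin ligase then recognises them, and the proteasome degrades them. In low oxygen the alpha subunits persist, pair with ARNT and bind a short DNA core, (A or G)CGTG, near their target genes. HIF alpha subunits are controlled mainly as proteins, so their mRNA level does not report their activity, and no protein was measured. The secreted products among the targets act on vessels, on lipid use and on mineral balance, and several of these genes also respond to nutrient or endoplasmic reticulum stress. In hepatocellular carcinoma the pathway is known above all for VEGFA and the growth of tumour vessels.

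ANGPTL4, ADM and STC2 were higher by every probe set, as were VEGFA and NDRG1, for which no window was found. The probe sets of BNIP3 disagreed, as did those of EPAS1, EGLN1 and EGLN3. The start regions of 4 members, ANGPTL4, ADM, STC2 and BNIP3, are printed. They are RefSeq windows on GRCh38.p14 from 250 bases before to 50 after the start site, 5′ to 3′ along the gene, and the capitals mark ACGTG and GCGTG, searched on both strands (CACGT and CACGC on the strand shown).
ANGPTL4 chr19:8363905-8364204 plus strand: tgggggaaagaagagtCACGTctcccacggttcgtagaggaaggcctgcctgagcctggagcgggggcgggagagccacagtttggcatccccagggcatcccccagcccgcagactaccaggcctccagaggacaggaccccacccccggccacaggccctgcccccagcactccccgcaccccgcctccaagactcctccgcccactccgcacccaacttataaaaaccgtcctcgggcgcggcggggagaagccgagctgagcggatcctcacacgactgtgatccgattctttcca
ADM chr11:10304823-10305122 plus strand: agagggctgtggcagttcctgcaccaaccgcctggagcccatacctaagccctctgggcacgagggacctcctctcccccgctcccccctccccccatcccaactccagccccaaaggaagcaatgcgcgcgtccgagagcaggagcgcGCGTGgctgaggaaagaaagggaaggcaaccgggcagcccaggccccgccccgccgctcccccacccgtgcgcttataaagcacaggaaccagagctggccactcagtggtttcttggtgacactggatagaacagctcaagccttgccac
STC2 chr5:173328365-173328664 minus strand: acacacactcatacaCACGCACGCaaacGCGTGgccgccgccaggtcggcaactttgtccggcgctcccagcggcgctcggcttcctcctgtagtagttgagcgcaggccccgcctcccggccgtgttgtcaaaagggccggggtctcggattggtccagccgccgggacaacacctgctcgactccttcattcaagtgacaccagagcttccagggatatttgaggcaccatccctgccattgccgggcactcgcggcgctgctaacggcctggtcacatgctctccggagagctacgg
BNIP3 chr10:131981874-131982173 minus strand: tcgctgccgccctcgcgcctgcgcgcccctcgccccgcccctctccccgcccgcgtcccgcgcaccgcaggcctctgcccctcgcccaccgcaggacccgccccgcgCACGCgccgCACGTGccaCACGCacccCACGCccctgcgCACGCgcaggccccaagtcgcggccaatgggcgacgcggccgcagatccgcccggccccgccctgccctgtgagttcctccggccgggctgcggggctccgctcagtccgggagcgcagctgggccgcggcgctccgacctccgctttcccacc
The ANGPTL4 window held 1 match, the ADM window 1, the STC2 window 3 and the BNIP3 window 6, of which an overlapping pair, 1 on each strand, forms CACGTG. Of 35116 RefSeq windows of this length, 48.4% held at least 1 match, 10.1% at least 3 and 4.4% at least 4. HIF1A had 2 windows, with 1 match and 0, EPAS1 and EGLN1 had 1 match each and EGLN3 had 0, so that 7 of 9 windows of the 8 genes found in the table held the core. A match is a stretch of letters, not a bound site, and binding was not measured.

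Before the members, the arrays themselves differed in ways that touch them. The deposited values are log2 RMA values, 1 per probe set and array, where 1 unit is a doubling of signal. Hybridization controls, labelled RNAs added in equal amount before hybridization, averaged 9.79 ± 0.04 with the empty vector and 10.09 ± 0.10 under the USP48 label (SD, n = 3 each; two-sided exact permutation test, p = 0.1, its lowest possible value for 3 against 3). Scaling the arrays on these controls lowers every log2 difference by 0.29 and moves the median of all genes from 0.05 to −0.24, so small rises of the members are given with that scaling too. Under it 3.34% of all probe sets were called higher and 39% lower, and 4.84% of all genes higher and 37.9% lower. Poly-A controls, RNAs added before labelling, averaged 5.13 ± 0.13 and 5.55 ± 0.24 (SD, n = 3 each; two-sided exact permutation test, p = 0.1), a difference of 0.42 that no scaling used. The 5′ minus 3′ difference of GAPDH, which falls as RNA degrades, was −0.38 ± 0.06 and −0.76 ± 0.48 in the same order (SD, n = 3 each; two-sided exact permutation test, p = 0.1), and USP48 overexpression replicate 3 stood apart at −1.31. That of ACTB was −3.46 ± 0.22 and −3.82 ± 0.35 (SD, n = 3 each; two-sided exact permutation test, p = 0.2). The part of these values in the results was not tested. None of the 5 probe sets of USP48 was called higher in the group that carries its name. Of these, 220079_s_at differed by −0.82 and 220078_at by −0.63 (limma adjusted p = 0.00013 and 0.000852), and the other 3, with the brightest at −0.13, were not called. Whether these probes lie in the expressed sequence was not analysed here, and the groups are named by their labels throughout. Of the 8 hepatocyte markers measured, 5 lay below the median of every array in both groups, among them ALB and SERPINA1 (0.23, limma adjusted p = 0.0717). AFP was at 3.75 ± 0.29 and 3.96 ± 0.11 (SD, n = 3 each) beside array medians of 3.75 to 3.79. By their group means TTR (5.11 ± 0.22 and 5.31 ± 0.11) and TF (4.30 ± 0.12 and 4.33 ± 0.07) lay above those medians (SD, n = 3 each). Of 8 epithelial and mesenchymal markers, the epithelial keratins KRT8 and KRT18 read 10.9 and 11.8 with the empty vector, but KRT19 and CDH1, at 2.81 and 2.95, lay below every array median in both groups. FN1, a matrix protein, was called higher in that list at 1.48 (limma adjusted p = 0.000728). Called lower were CDH2 (−0.65), VIM (−0.42, but adjusted p = 0.0555 when its probe sets were averaged), EPCAM (−0.42) and CDH1 (−0.38), and the list median was −0.34. Of 7 endothelial and 7 leukocyte markers measured, 0 were called higher by limma, and 1 and 2 had an unadjusted p under 0.05 in either direction. The endothelial CDH5 was called lower (−0.42, adjusted p = 0.0128), though not without empty vector replicate 2 (−0.37, adjusted p = 0.0586). Among the leukocyte markers CD14 was at 0.32 and FCER1G at 0.23, both not called, and at 0.024 and −0.059 under the scaling. CD14, below every array median in both groups, did pass with the replicate number as a block (limma adjusted p = 0.0344). It also passed in the fit on probe set means (0.0488) and without USP48 overexpression replicate 1 (0.0109). The mean level over the genes of a list ran from 3.88 to 3.93 and from 3.88 to 3.92 for the endothelial markers, and from 3.04 to 3.08 and from 3.11 to 3.31 for the leukocyte markers, in the empty vector and the USP48-labelled arrays.

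The hypoxia-induced secreted proteins were higher in the USP48-labelled arrays, while the factors and their hydroxylases gave small or divided differences. Of the 22 member probe sets, 14 were called higher and 1 lower by limma at an adjusted p under 0.05 over all 54613 probe sets, where 10.6% of all probe sets were called higher and 13.8% lower. The 9 probe sets of VEGFA, ANGPTL4, ADM and STC2 were all called higher, with log2 differences (USP48-labelled minus empty vector) from 0.88 to 2.82. The remaining 13 held 5 of the higher calls and the 1 lower call. The median log2 difference was 0.59 over the 22 probe sets and 0.03 over all probe sets. Genes with several probe sets weigh more in these figures. Medians by role were 1.07 for the secreted proteins, 0.26 for the factors, 0.11 for the hydroxylases and 0.30 for NDRG1 with BNIP3. Read by the brightest probe set alone, VEGFA, ANGPTL4, ADM, STC2 and NDRG1 were called higher. HIF1A, EPAS1, EGLN1, EGLN3 and BNIP3 were then not called, where 15.7% of all genes were called higher. Of the 22, 7 were called and at least 2-fold higher (1.24% of all probe sets), and the groups did not overlap in 19 of the 22 (38.2% of all probe sets). The members were chosen with results of these data known, so these shares are a description. In RNA of bulk cells, a change in the cells' makeup and a change in RNA per cell cannot be told apart.

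**Figure D1:**
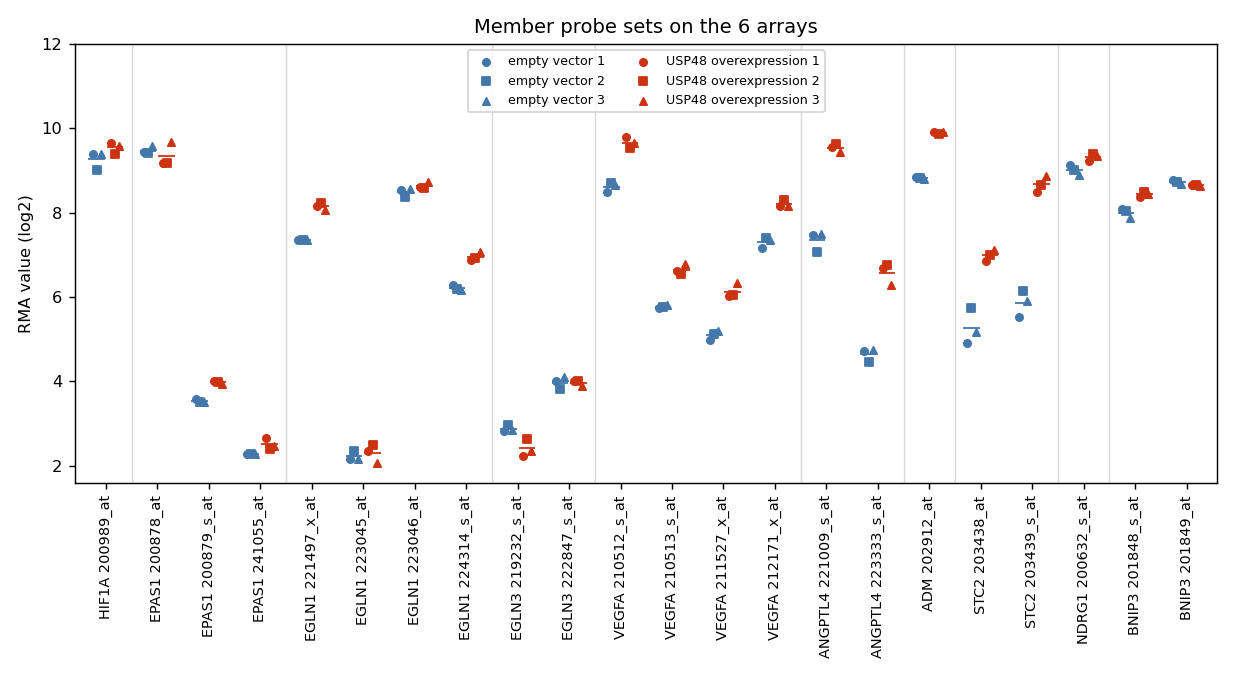
RMA values (log2, vertical axis) of the 22 member probe sets on each of the 6 arrays, with empty vector arrays in blue, USP48-labelled arrays in red, a marker shape per replicate and a short line at each group mean. For VEGFA, ANGPTL4, ADM and STC2 every red point lies above every blue point, while for the brightest EPAS1 probe set, 200878_at, the groups overlap.

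VEGFA, the growth factor that drives new vessels from endothelial cells, was higher by all 4 of its probe sets. The brightest, 210512_s_at, read 8.48, 8.70 and 8.67 with the empty vector and 9.78, 9.53 and 9.66 under the USP48 label. The lowest USP48-labelled array was thus above the highest empty vector array. The log2 difference was 1.04 (SE 0.10, 95% interval 0.81 to 1.27, limma adjusted p = 4.37e-05), which is 2.06-fold. The other 3 probe sets gave 0.88 for 210513_s_at, 1.03 for 211527_x_at and 0.91 for 212171_x_at, with adjusted p of 7.39e-05, 7.53e-05 and 8.87e-05. The probe sets of VEGFA therefore lay within 0.16 of each other, and the differences of the 3 from the brightest within arrays had an exact permutation p of 0.2, 0.9 and 0.4 (n = 3 each). They read RNA of 1 gene and are not replicates.

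ANGPTL4, a secreted inhibitor of lipoprotein lipase, was higher by both of its probe sets. Probe set 221009_s_at read 7.47, 7.07 and 7.49 with the empty vector and 9.55, 9.63 and 9.44 under the USP48 label. Empty vector replicate 2 was the lowest of all, and the groups were about 2 units apart on the log2 scale. The log2 difference was 2.19 (SE 0.12, 95% interval 1.92 to 2.47, limma adjusted p = 1.66e-06), or 4.58-fold. The dimmer 223333_s_at read 4.73, 4.45 and 4.74 against 6.69, 6.76 and 6.28, a difference of 1.94 (adjusted p = 5.67e-06). Here too empty vector replicate 2 was lowest, and the groups did not overlap. The difference of 223333_s_at minus that of 221009_s_at was −0.26 (SD 0.07 and 0.17 within the groups, n = 3 each, exact permutation p = 0.1). The fold was thus 3.8 by the dimmer and 4.58 by the brighter probe set, in the same direction.

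ADM encodes adrenomedullin, a peptide that widens vessels. Its 1 probe set read 8.85, 8.81 and 8.81 with the empty vector and 9.90, 9.87 and 9.91 under the USP48 label, with an SD of 0.02 within each group. The log2 difference was 1.07 (SE 0.08, 95% interval 0.88 to 1.26, limma adjusted p = 1.09e-05), or 2.10-fold. The spread within the groups was thus small beside the gap between them.

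STC2, stanniocalcin 2, a secreted glycoprotein first known from calcium and phosphate balance, had the highest difference of the members. Probe set 203439_s_at read 5.52, 6.14 and 5.91 with the empty vector and 8.49, 8.65 and 8.88 under the USP48 label. Empty vector replicate 2 was the highest of its group and still lay more than 2 units below every USP48-labelled array. The log2 difference was 2.82 (SE 0.16, 95% interval 2.47 to 3.16, limma adjusted p = 1.52e-06), or 7.04-fold, and 0.0861% of all probe sets had a higher difference. Probe set 203438_at read 4.92, 5.73 and 5.16 against 6.84, 7.01 and 7.11, a difference of 1.71 (SE 0.18, adjusted p = 5.45e-05). The gap between these differences was 1.10 (SD 0.17 and 0.07 for the difference between probe sets in the 2 groups, n = 3 each; exact permutation p = 0.1), so the fold of STC2 depends on the probe set read, while its direction does not. Scaled on the hybridization controls, the 9 probe sets of these 4 secreted proteins ran from 0.58 to 2.52 and were all still called higher (3.34% of all probe sets).

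**Figure D2:**
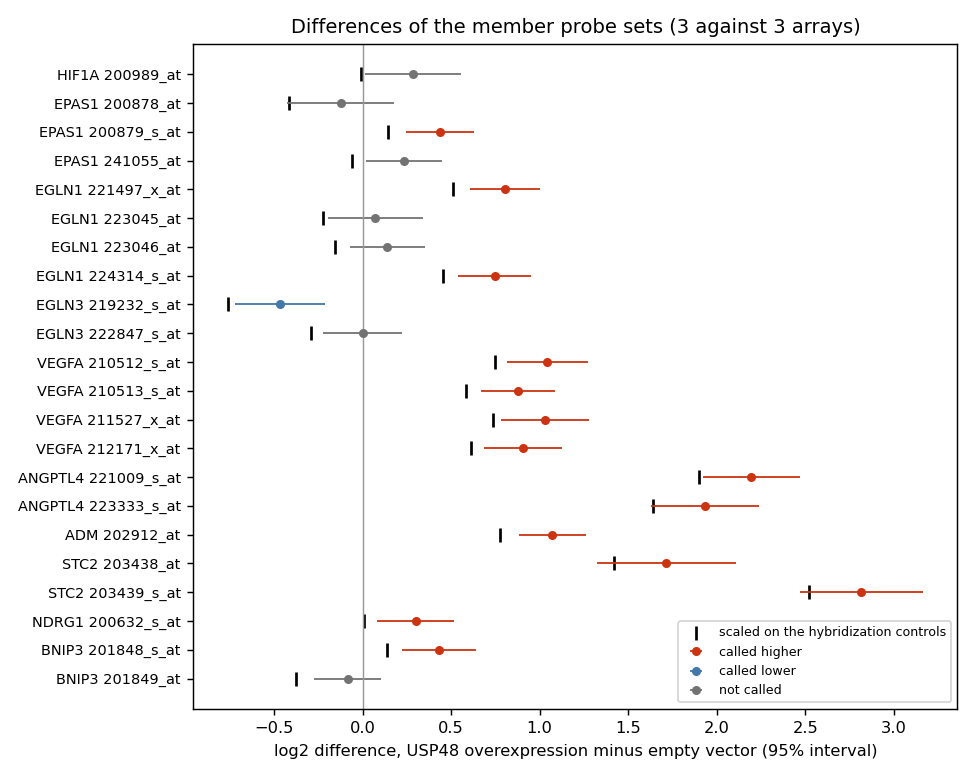
Log2 differences (horizontal axis, USP48-labelled minus empty vector, 3 against 3 arrays) of the 22 member probe sets with 95% intervals from limma, in red where called higher, blue where called lower and grey where not called, and a black tick at the value with the arrays scaled on the hybridization controls. The probe sets of the secreted proteins lie between 0.88 and 2.82, and those of HIF1A, EPAS1, EGLN3, NDRG1 and BNIP3 between −0.47 and 0.44.

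Neither HIF factor showed a clear difference at the mRNA level. HIF1A, the alpha subunit found in most cells, has 1 probe set, which read 9.39, 9.02 and 9.39 with the empty vector and 9.65, 9.39 and 9.59 under the USP48 label. The groups did not overlap, by a margin below 0.01 between the highest empty vector array and USP48 overexpression replicate 2. The log2 difference of 0.28 (SE 0.12, 95% interval 0.01 to 0.55) did not pass (limma adjusted p = 0.128), and it was −0.01 with the arrays scaled on the hybridization controls. The interval does not cover a change of 2-fold in either direction.

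EPAS1, the HIF2 alpha subunit of endothelial and some epithelial cells, had 3 probe sets that did not move together. The brightest, 200878_at, read 9.44, 9.41 and 9.57 with the empty vector and 9.18, 9.18 and 9.69 under the USP48 label. Replicates 1 and 2 of the USP48-labelled arrays lay below every empty vector array, and replicate 3, the array that stood apart in its GAPDH difference, lay above them all. The log2 difference was −0.12 (SE 0.14, limma adjusted p = 0.575), −0.29 without USP48 overexpression replicate 3 (adjusted p = 0.0627) and −0.42 with the arrays scaled on the hybridization controls, where it was called lower (adjusted p = 0.0169); over all alternatives the adjusted p ran from 0.0169 to 0.897. The dim 200879_s_at read 3.59, 3.52 and 3.51 against 4.01, 3.98 and 3.93 and was called higher at 0.44 (adjusted p = 0.00363), with its empty vector mean below the median of every array. That call was lost with the arrays scaled on the hybridization controls (0.14, adjusted p = 0.325, within a range of 0.0019 to 0.325). Probe set 241055_at, below every array median in both groups, was at 0.23 (adjusted p = 0.116) and at −0.06 after that scaling. No direction for EPAS1 can therefore be given from these arrays.

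Among genes read by their brightest probe set with a mean above the median of all genes, those whose values over the 6 arrays followed HIF1A most closely were RAB11B-AS1, OTUD6B and CCDC47 (Pearson r = 0.997, 0.991 and 0.987 over 6 arrays). For EPAS1 they were BMP6, LOX and KIF3B (r = 0.986, 0.985 and 0.979). With 6 points and a search over all these genes such values describe the arrays. Of the correlated genes only OTUD6B was called, higher at 0.41 (limma adjusted p = 0.0492). LOX, a collagen cross-linking enzyme, was not called (log2 difference −0.34, limma adjusted p = 0.398) and had an SD of 0.74 among the USP48-labelled arrays.

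The prolyl hydroxylases also gave divided readings. EGLN1, the main oxygen sensor that acts on HIF1A, had 4 probe sets, of which 2 were called higher. Probe set 221497_x_at read 7.34, 7.36 and 7.35 with the empty vector and 8.16, 8.24 and 8.07 under the USP48 label, which is 0.81 higher on the log2 scale (SE 0.09, limma adjusted p = 8.53e-05, 1.75-fold). Probe set 224314_s_at read 6.28, 6.19 and 6.17 against 6.88, 6.93 and 7.07, a difference of 0.75 (SE 0.09, adjusted p = 0.000192, 1.68-fold). In both the groups were clearly apart, and both were still called with the arrays scaled on the hybridization controls, at 0.51 and 0.45. The brightest probe set, 223046_at, read 8.55, 8.37 and 8.57 against 8.60, 8.58 and 8.73 and was not called (0.14, SE 0.10, 95% interval −0.07 to 0.35, adjusted p = 0.346; −0.15 after that scaling). Within arrays, 221497_x_at and 224314_s_at exceeded the difference of 223046_at by 0.66 and 0.61 (exact permutation p = 0.1 for both, n = 3 each, the smallest possible). The suffixes _s_at and _x_at mark probe sets that can match several transcripts, which for _x_at may be those of other genes. Where these probes lie in EGLN1, and whether they read other genes, was not analysed here. Other member probe sets, among them those of VEGFA, carry these suffixes too. The fourth EGLN1 probe set, 223045_at, below every array median in both groups, was at 0.07 (limma adjusted p = 0.725), and at −0.22 after that scaling.

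EGLN3, a prolyl hydroxylase that is itself a strong hypoxia target, was dim. Probe set 222847_s_at read 4.01, 3.81 and 4.09 with the empty vector and 4.00, 4.01 and 3.90 under the USP48 label, with a mean of 3.97 in both groups and a 95% interval of the difference from −0.22 to 0.22. Probe set 219232_s_at, below every array median in both groups, read 2.84, 2.97 and 2.84 against 2.24, 2.64 and 2.36. Its difference of −0.47 (SE 0.11, limma adjusted p = 0.0123) is the 1 lower call among the members, and no fold is given for values this low. The call did not hold without empty vector replicate 2 (−0.42, adjusted p = 0.0562) and without USP48 overexpression replicate 1 (−0.38, adjusted p = 0.0523), in a range from 0.000261 to 0.0562 over its alternatives. EGLN3 was thus not called higher by either probe set.

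The intracellular targets gave small differences. NDRG1, a stress-responsive protein of differentiation, read 9.14, 9.02 and 8.90 with the empty vector and 9.23, 9.39 and 9.34 under the USP48 label. The groups did not overlap, and the log2 difference of 0.30 (SE 0.10, 95% interval 0.08 to 0.52, limma adjusted p = 0.0483, 1.23-fold) only just passed. It did not pass when any 1 array other than empty vector replicate 1 was left out (adjusted p from 0.0572 without USP48 overexpression replicate 1 to 0.155 without empty vector replicate 3), after quantile normalization (0.0611) or after median centring (0.0585), and it was 0.01 with the arrays scaled on the hybridization controls (0.97), over a range of 0.013 to 0.97 for all alternatives. BNIP3, a mitochondrial protein that marks mitochondria for autophagy, was called higher by 201848_s_at, which read 8.09, 8.05 and 7.88 against 8.37, 8.48 and 8.46 (0.43, SE 0.10, adjusted p = 0.00681, 1.35-fold). Its brighter 201849_at read 8.78, 8.73 and 8.69 against 8.65, 8.65 and 8.63, with every USP48-labelled array slightly lower, and was not called (−0.08, SE 0.09, 95% interval −0.27 to 0.10, adjusted p = 0.536). With the arrays scaled on the hybridization controls the first was at 0.14 (adjusted p = 0.338) and the second was called lower at −0.38 (adjusted p = 0.0169), over ranges of 0.00133 to 0.338 and 0.0169 to 0.745. The gap between the BNIP3 probe sets was 0.52 (exact permutation p = 0.1, n = 3 each). As with EPAS1, no single direction for BNIP3 follows.

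Other genes of the pathway were read by the brightest probe set of each gene, of 19775, of which 15.7% were called higher and 14.1% lower. Of 15 genes of the oxygen sensing machinery, 4 were higher and 4 lower, with a median log2 difference of −0.07 beside 0.05 over all genes. CITED2, which competes with HIF for the coactivators CBP and p300, rose from 6.63 ± 0.05 to 8.11 ± 0.16 (SD, n = 3 each), a difference of 1.48 (SE 0.10, limma adjusted p = 2.8e-06). Its dimmer probe set 207980_s_at was also called higher over all probe sets (limma adjusted p = 1.62e-05). The dimmest, 227287_at, was at 0.07 and was not called there (limma adjusted p = 0.69). Averaging the probe sets of CITED2 gave 1.05 (limma adjusted p = 4.48e-05). ARNT, the partner subunit of both HIF factors, fell from 6.37 ± 0.10 to 5.61 ± 0.21 (−0.77, SE 0.11, adjusted p = 0.000515). Of the other 6 ARNT probe sets, 230619_at (−0.82) and 231016_s_at (−0.60) were also called lower over all probe sets (adjusted p = 0.0002 and 0.0108), the other 4 ran from −0.08 to 0.11 and were not called, and averaging all 7 gave −0.31 (adjusted p = 0.00734). CUL2, the scaffold of the VHL ligase, was at −0.48 and P4HTM, a membrane prolyl hydroxylase, at −0.42, both called lower. EGLN2, below every array median in both groups, was also called lower (−0.25, limma adjusted p = 0.0396). Besides CITED2, HIF1AN (0.42), ELOC (0.34) and RBX1 (0.28, limma adjusted p = 0.0399) were called higher. Like CUL2, ELOC and RBX1 belong to the VHL ligase, so its subunits were divided. With the arrays scaled on the hybridization controls 1 gene of this list was higher and 8 lower (4.84% and 37.9% of all genes), with CITED2 at 1.19 and ARNT at −1.06.

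Other hypoxia-induced genes did not move as one. Of 26 measured, 8 were higher and 1 lower (30.8% and 3.8%, beside 15.7% and 14.1% of all genes), and the median log2 difference was −0.02. The glucose transporter SLC2A3 was at 1.16 and the hexokinase HK2 at 1.07 (limma adjusted p = 6.12e-06 and 7.88e-06), while ANKRD37 was at 0.57 and the repressor BHLHE40 at 0.40. When the probe sets of a gene were averaged, SLC2A3 was at 0.73, HK2 at 0.55 and ANKRD37 at 0.25 (adjusted p = 0.0487), all still called. The other higher calls were KDM3A and DDIT4 at 0.33, MXI1 at 0.28 and PFKFB3 at 0.24, and the lower call was CA12 at −0.38. The 17 genes not called included SLC2A1 at 0.03, PGK1 at 0.04, PDK1 at −0.09 and LDHA at −0.20. These serve glucose use, as do SLC2A3 and HK2, and were singled out after their values were seen. With the arrays scaled on the hybridization controls 2 of the 26 were higher, SLC2A3 at 0.86 and HK2 at 0.78, and 13 were lower (4.84% and 37.9% of all genes), while ANKRD37 (0.28, adjusted p = 0.0503) and BHLHE40 (0.11, adjusted p = 0.438) no longer passed.

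**Figure D3:**
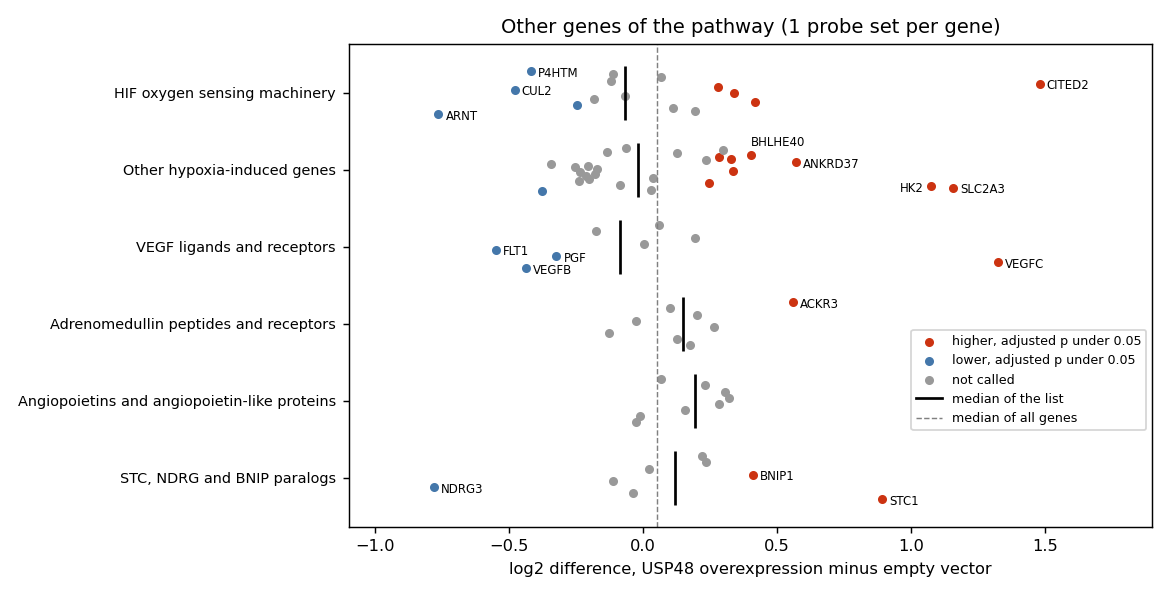
Log2 differences (horizontal axis, USP48-labelled minus empty vector) of other pathway genes, 1 point per gene by its brightest probe set, in 6 lists, coloured red where called higher, blue where called lower and grey where not called, with a bar at the median of each list and a dashed line at the median of all genes, 0.05. Single genes such as CITED2 and VEGFC lie far to the right while the list medians lie between −0.09 and 0.19.

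Relatives of the secreted members differed among themselves, in lists set beside 15.7% of all genes called higher and 14.1% lower. Of 8 measured VEGF ligands and receptors, VEGFC, a ligand of lymphatic vessels, rose from 5.21 ± 0.12 to 6.54 ± 0.15 (SD, n = 3 each; 1.32, limma adjusted p = 7.35e-06). The ligand VEGFB (−0.44), the ligand PGF (−0.32) and the receptor FLT1 (−0.55) were called lower. PGF was at the edge (adjusted p = 0.0488). It did not pass after quantile normalization (0.0881) or without any 1 array other than USP48 overexpression replicate 3 (adjusted p from 0.0737 to 0.159), and was at 0.11 when its probe sets were averaged (adjusted p = 0.526), where FLT1 was at −0.08 (adjusted p = 0.425). Of 8 measured adrenomedullin peptides and receptors, 1 was higher, the scavenger receptor ACKR3 at 0.56 (adjusted p = 0.0021), which was at 0.26 with the arrays scaled on the hybridization controls (adjusted p = 0.117) and at 0.03 when its probe sets were averaged (adjusted p = 0.847), and 5 of the 8, among them the receptor gene CALCRL, lay below every array median in both groups. Of 8 measured angiopoietin and angiopoietin-like genes and partners, 0 were called by limma and 3 had an unadjusted p under 0.05. ANGPTL7 at 0.32 and ANGPTL8 at 0.31 had the highest differences of that list, both below every array median in both groups, and were at 0.028 and 0.011 with the arrays scaled on the hybridization controls.

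Among the paralogs of STC2, NDRG1 and BNIP3, 2 of 8 were higher and 1 lower (15.7% and 14.1% of all genes). STC1, the other stanniocalcin, rose from 3.85 ± 0.10 to 4.74 ± 0.11 (SD, n = 3 each; 0.89, SE 0.09, limma adjusted p = 5.26e-05), and was at 0.60 with the arrays scaled on the hybridization controls. Its dimmer probe sets 204597_x_at and 204596_s_at were at 1.38 and 0.23, the second not called (adjusted p = 0.103). NDRG3 fell from 8.64 ± 0.04 to 7.86 ± 0.15 (−0.78, SE 0.09, adjusted p = 0.000133). Its dimmer probe sets 224368_s_at and 221082_s_at were at −0.62 and −0.29, the second not called (adjusted p = 0.152). BNIP1, a membrane fusion protein of the endoplasmic reticulum, was at 0.41 (adjusted p = 0.0079), and at 0.11 after that scaling (adjusted p = 0.437). BNIP3L, the closest relative of BNIP3, was at 0.24 and was not called (adjusted p = 0.078), was at −0.058 after that scaling, and was called lower at −0.37 when its probe sets were averaged (adjusted p = 0.00828). Under that scaling the lists of relatives held 2 higher calls, VEGFC at 1.03 and STC1 (4.84% of all genes). Lower calls under it were 4 in the VEGF list, 1 in the adrenomedullin list, 0 in the angiopoietin list and 2 among the paralogs (37.9% of all genes).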

How the data were processed

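The 6 Affymetrix arrays were grouped by their titles. The deposited values are log2 values made by the authors with RMA, per the submitters' processing notes; no version or settings are named there. RMA brings arrays to a like distribution of signal, which hides a change in the amount of RNA per cell. Values ran from 0.19 to 13.2. Of 54675 probe sets, 62 controls were left out of the tests; 41091 named 1 gene symbol, 1801 several and 11721 none, and 41037 matched RefSeq gene IDs. No filter or further normalization was applied. No 2 columns were identical.

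The main test was the two-sided moderated test of limma 3.58.1 (R 4.3.3; functions lmFit and eBayes), with p-values adjusted by Benjamini-Hochberg and a threshold of 0.05, over all 54613 probe sets for the members and over 19775 genes (brightest probe set each) for the other pathway genes. Single measures were compared by exact permutation. The fit was tested on simulated data. The members and lists were chosen with earlier results of these data known. Named were all members and, per list, up to 4 called genes with the largest absolute difference, or 2 where none was called, and the 3 genes most correlated with HIF1A and with EPAS1, the last among genes above the median level and without provisional or small RNA symbols. ALB, KRT8, KRT18, KRT19, CDH1, CALCRL, BNIP3L, SLC2A1, PGK1 and PDK1 were named outside this rule, after their values were seen. The same holds for HIF1AN, ELOC, RBX1, EGLN2, KDM3A, DDIT4, MXI1, PFKFB3, CA12, LDHA, TTR and TF. Alternatives were quantile normalization, median centring, scaling on the 18 hybridization controls, an intensity trend with robust prior, leaving out the dimmest 33.3%, the replicate number as a block, each array left out, an adjusted p under 0.01, the gene level for members and the mean of all probe sets for genes. Plots used matplotlib 3.10.9 (Python 3.11.15).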

Additional observations from a re-analysis of the deposited data

How the results depend on the processing

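Of the 15 called member probe sets, 11 kept their call and direction under every alternative run on them: those of VEGFA, ANGPTL4, ADM and STC2 and both called EGLN1 probe sets. Member probe sets called higher numbered 11 to 14. Those called lower were 1, but 3 with the arrays scaled on the hybridization controls and 0 at an adjusted p under 0.01. With 1 array left out they were 0 to 1. Without the dimmest 33.3% the count was 0, but there the lower-called EGLN3 219232_s_at was itself left out and not retested.

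Scaling on the hybridization controls, which lowers every difference, turned HIF1A to −0.011, EPAS1 241055_at to −0.060, EGLN1 223045_at to −0.22 and 223046_at to −0.15, and EGLN3 222847_s_at to −0.29. It gave 1826 higher and 21290 lower probe sets, 957 higher and 7495 lower genes, and a median of all genes of −0.24. List medians became −0.36 (oxygen sensing), −0.31 (other hypoxia-induced, with 15 called), −0.38 (VEGF), −0.14 (adrenomedullin), −0.10 (angiopoietins) and −0.17 (paralogs). EGLN3 222847_s_at, whose groups had equal means, was also at −0.0030 after median centring and ranged from −0.080 to 0.062 with 1 array left out. EGLN1 223045_at ranged from −0.021 (without USP48 overexpression replicate 2) to 0.19 in the same way.

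At an adjusted p under 0.01, 3301 probe sets and 1936 genes were higher, with 5 oxygen sensing and 5 other hypoxia-induced genes called. Without the dimmest 33.3% the medians were −0.00046 (oxygen sensing), −0.18 (VEGF), 0.22 (paralogs) and 0.022 (all genes). With the mean of all probe sets the medians were 0.066 (VEGF), 0.072 (adrenomedullin) and −0.13 (paralogs), with 0 adrenomedullin, 1 angiopoietin and 5 paralog genes called. Quantile normalization gave 2 adrenomedullin calls. With 1 array left out, called genes ranged from 5 to 8 (oxygen sensing), 1 to 2 (adrenomedullin) and 0 to 2 (angiopoietins), and medians from −0.096 to −0.012 (oxygen sensing) and −0.16 to −0.018 (VEGF). Beyond the scaling itself, the causes were not tested.

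Same-numbered arrays correlated by 0.0042, 0.17 and 0.015 in their deviations from the group means across genes, and not every array correlated best with its own number, so the replicate numbers were not taken as pairs. With the replicate number as a block, 13 member probe sets were called higher and 1 lower, and NDRG1 had an adjusted p of 0.0763. No detection calls were used, and 3 arrays per group limit the precision.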
